A study of Mus musculus with 10 samples.

Results

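The change with age was followed in the auditory cortex of male C57BL/6 mice labelled Ash1l het, by comparing 2 libraries from animals of 1 year with 3 libraries from animals of 1 month. These 5 libraries were taken by genotype and age label from the 10 of the series, and all genes were used. The other 5 libraries came from WT cortex, 3 at 1 month and 2 at 1 year, and served to estimate the spread and to set the change in het beside that in WT. The labels give neither the Ash1l allele nor how it was made, and name no further allele or treatment. Whether any libraries share an animal is not labelled. The p-values below therefore measure only the spread between these libraries, which may be technical. No extraction or sequencing batch is labelled, so a batch shared by libraries of the same age and the age itself cannot be told apart.

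Ash1l encodes a histone methyltransferase that places methyl groups on lysine 36 of histone H3 and counters Polycomb silencing at developmental genes. Between the juvenile and the mature stage the cortex ends most of its axon and dendrite growth, prunes synapses, completes perineuronal nets around inhibitory neurons and goes on adding myelin. Ageing cortex is known for rising complement and MHC class I transcripts in glia, and its protein-folding machinery of the endoplasmic reticulum is known to decline.

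The 3 het libraries of 1 month held 14653405, 15170092 and 16103513 counted reads, and those of 1 year held 12215004 and 11959161. Cortical identity was clear in all 5, with Slc17a7, the vesicular glutamate transporter of cortical excitatory neurons, at 855 to 1510 CPM (read counts scaled to library size, with TMM factors) and Gad1, which makes GABA, at 210 to 291 CPM. One library stood apart: the chi-square per gene between replicate 1 of 1 month and replicates 2 and 3 was 31.6 and 30.3, against 11.3 between replicates 2 and 3. By this measure replicate 1 was nearer to the 1 year het libraries, at 16.9 and 20.9. The correlation of log2 CPM did not separate them, at 0.974 and 0.978 with replicates 2 and 3 and at 0.976 with each library of 1 year. Counts and medians of the gene lists are given with and without this library. It was picked out for lying nearer to the older libraries by chi-square, so leaving it out is no independent check of a list. Over all genes this raised the number of calls, whereas leaving out any other het library lowered it, as given below.

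Ash1l itself was no lower at 1 year. It stood at 147, 153 and 131 CPM at 1 month and at 156 and 162 CPM at 1 year. All 5 het values lay below all 5 WT values, which were 192 to 225 CPM at 1 month and 165 and 183 CPM at 1 year. The change with age in het was 0.15 ± 0.11 on the log2 scale (log2 fold change ± SE), with an adjusted p of 0.415 by edgeR's quasi-likelihood test. In WT the estimate was -0.28, and the unadjusted p of the difference between genotypes was 0.0164. The gene overlaps Dap3, and since no source gives the strand setting of counting, reads of overlapping genes may be shared. The same limit holds for Pdia6, Hspd1, Syp, Syn1, Rab3a, Lrrtm3, Nlgn3, Cacng2, Cacng4, Crmp1, Col4a1, Fyn, Csf1r, Ccnd1, Nr1d1, Klk8, Hs3st3a1, Rpl12, Rpl28, Rpl31, Rpl32, Gpr17, H2-T22, Pax6, Pcdha9, Hook1, Syvn1, Hsp90b1 and Gad1, each of which overlaps another gene.

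Between 1 month and 1 year, 552 of 16023 tested genes changed in het cortex at an adjusted p under 0.05, or 3.45% of those tested. Of these, 295 rose (1.84% of tested genes) with a median log2 fold change of 0.82, and 257 fell (1.60%) with a median of -0.64. Only 86 of the genes that rose and 31 of those that fell moved past 2-fold. An unadjusted p under 0.05 was reached by 3999 genes, where evenly spread p-values would give 801. Over all tested genes the median change was 0.01, and 50.6% were higher at 1 year. In all 552 the 1 year libraries lay entirely above or below the 1 month libraries, an arrangement found in 21.7% (above) and 20.8% (below) of tested genes.

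The number of calls depended strongly on single libraries. Without replicate 1 of 1 month it was 2931 (18.4% of 15919 genes tested; 8.19% higher and 10.2% lower), among them 550 of the 552. Without replicate 2 or 3 of 1 month it was 26 and 19, of which 24 and 17 were among the 552. Without replicate 1 or 2 of 1 year it was 21 and 22, with 12 of the 552 called in each case, in fits that assume the lone library of 1 year to vary like the other groups. Leaving out a WT library, which changes the estimate of the spread, the scaling factors and the genes tested but no het count, gave 136 to 664 calls. A fit of the 5 het libraries alone called 32 genes, of which 23 rose and 9 fell. In each of the 10 fits that left out a library, 551 or 552 of the 552 kept their sign. That is no independent check of direction, since the ages did not overlap in any of the 552. Calls on 9 genes were kept in all 10 fits, and a gene named below lost its call without at least 1 library unless it is said to have kept it throughout. With all libraries, the list counts below stand beside 1.84% of tested genes that rose and 1.60% that fell. List counts without replicate 1 of 1 month stand beside 8.19% that rose and 10.2% that fell.

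**Figure D1:**
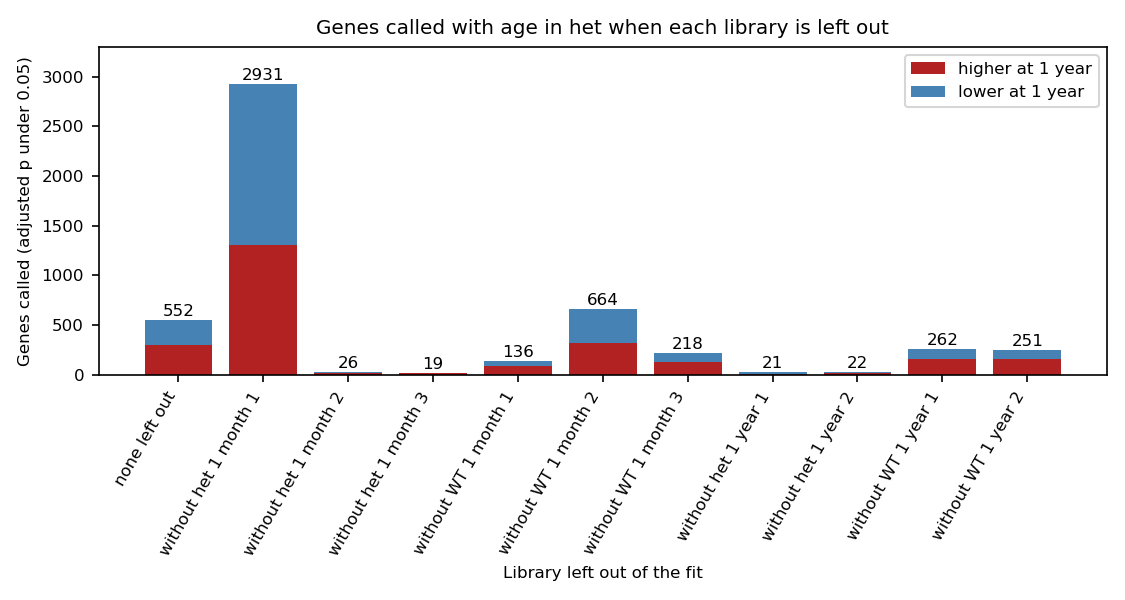
Number of genes called in het, 1 year against 1 month, with no library left out and with each of the 10 libraries left out in turn (bars, split into higher and lower at 1 year). The count is 552 with all libraries, 2931 without replicate 1 of 1 month, and 19 to 26 without any other het library.

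Among the genes that kept the call throughout, the best known roles belong to Met, Mtf2, Cpeb1 and Hook1, which are named here after their values were seen. Met, a receptor for hepatocyte growth factor that guides dendrite growth and synapse maturation (chromosome 6, 17463800 to 17573980 in GRCm38), stood at 13, 21.8 and 17.5 CPM at 1 month and at 4.25 and 3.98 CPM at 1 year. It fell 4.22-fold (log2 -2.08 ± 0.23, adjusted p = 0.00339 by edgeR), and every library of 1 year was far below every library of 1 month. Mtf2, a Polycomb-like subunit of the PRC2 complex that brings it to unmethylated CpG islands (chromosome 5, 108065674 to 108109004), was at 44.5, 36.9 and 46.9 CPM at 1 month and at 96.3 and 93.4 CPM at 1 year. It rose 2.22-fold (log2 1.15 ± 0.13, adjusted p = 0.00363 by edgeR), with the 1 year libraries nearly alike. Mtf2 overlaps Tmed5, so part of its count may belong to that gene.

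Cpeb1, which binds the cytoplasmic polyadenylation element and controls translation at synapses, was at 57.5, 50.8 and 61.5 CPM at 1 month and at 111 and 119 CPM at 1 year (log2 1.02 ± 0.11, adjusted p = 0.00339 by edgeR). Hook1, which links cargo to the dynein motor, was at 88.6, 70.0 and 91.3 CPM at 1 month and at 202 and 192 CPM at 1 year (log2 1.24 ± 0.15, adjusted p = 0.00496 by edgeR). For both genes the groups were well separated, and the WT estimates were 0.55 and 0.54 in the same direction.

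Beside these, Pisd-ps1 and PISD, a pseudogene on chromosome 11 and a gene on an unplaced scaffold that carry the name of phosphatidylserine decarboxylase, kept their calls in every fit. Pisd-ps1 went from 14.4, 12.5 and 17.1 CPM to 70.0 and 50.2 CPM, and PISD from 129, 88.3 and 146 CPM to 625 and 432 CPM. The rises were 4.09-fold and 4.36-fold. Such loci are close copies of each other, so how reads were divided among them is uncertain.

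Chaperones of the endoplasmic reticulum and cytosol fold new proteins, and their genes are induced through the unfolded protein response and heat shock factors. Their transcripts were mostly lower in the older het cortex. Of 28 tested members, 25 had a lower estimate at 1 year, 6 fell and none rose, with a median log2 change of -0.33 against 0.01 over all genes and -0.04 for the same list in WT. Without replicate 1 of 1 month the median was again -0.33, with 10 members that fell. The mean level of the list lay below every 1 month library in both libraries of 1 year, at -0.29 and -0.20 against -0.06 to 0.24 on a log2 scale centred on all 10 libraries.

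Calr, a calcium-binding chaperone of glycoproteins (chromosome 8, 84841850 to 84846934), was at 448, 447 and 452 CPM at 1 month and at 257 and 268 CPM at 1 year. Spread within each age was small beside the drop of 1.71-fold (log2 -0.77 ± 0.11, adjusted p = 0.0137 by edgeR). Pdia6, a protein disulfide isomerase, was at 154, 120 and 142 CPM and then at 90.0 and 87.9 CPM (log2 -0.64 ± 0.14, adjusted p = 0.0376 by edgeR). Canx, the membrane-bound partner of Calr in glycoprotein folding, was at 298, 323 and 331 CPM and then at 245 and 233 CPM. Its drop was smaller, at log2 -0.41 ± 0.10, and its adjusted p of 0.0497 by edgeR sat at the threshold. In the cytosol, Hsp90ab1 went from 1220, 1710 and 1560 CPM to 951 and 981 CPM, and Hsph1, a nucleotide exchange factor for Hsp70, from 346, 303 and 355 CPM to 238 and 224 CPM. Hspd1, the chaperonin of the mitochondrial matrix, went from 125, 133 and 138 CPM to 102 and 97.0 CPM.

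Hspa5, the central Hsp70 of the endoplasmic reticulum, did not pass the test although its estimate was the lowest of the list. Its libraries were at 428, 201 and 249 CPM at 1 month and at 117 and 163 CPM at 1 year, and the 1 month libraries alone spanned a wide range. The change was -1.07 ± 0.48 on the log2 scale (adjusted p = 0.223 by edgeR). Another 3 genes of this machinery, outside the list, also fell. They were picked for that after their values were seen, and Uggt2, also of the endoplasmic reticulum, rose (log2 0.90, adjusted p = 0.0353 by edgeR). Dnajb11, a co-chaperone of Hspa5, went from 81.2, 60 and 68.0 CPM to 40.1 and 41.9 CPM. It was the only gene called of 39 tested Dnaj genes, of which 16 had a higher and 23 a lower estimate. Syvn1, a ubiquitin ligase for misfolded proteins, went from 42.7, 41.7 and 46.6 CPM to 25.1 and 21.5 CPM, and Hyou1, another Hsp70 relative of the same compartment, from 79.5, 79.1 and 85.1 CPM to 49.2 and 51.6 CPM.

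The promoters of several of these genes hold the endoplasmic reticulum stress element, a CCAAT box and a CCACG box 9 bases apart (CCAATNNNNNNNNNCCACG) through which NF-Y and ATF6 act. Both strands of the RefSeq promoters of GRCm38.p6, 250 bases before to 50 after each start, were searched after the values were seen. The element was found in 39 of 32851 promoters (0.119%). Of the 28 chaperones, 24 matched a promoter in the table by symbol, and 6 of these held the element. The stretches around it are shown because they set genes that passed the test (Calr, Pdia6, Canx, Syvn1) beside genes that did not (Hspa5, Hsp90b1, Creld2). Each is written along the gene's strand with both boxes in capitals, and where the element lies on the opposite strand the boxes read CGTGG and ATTGG.
Calr (chr8:84847055-84847113, minus strand): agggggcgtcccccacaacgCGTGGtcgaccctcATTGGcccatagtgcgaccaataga
Pdia6 (chr12:17266471-17266529, plus strand): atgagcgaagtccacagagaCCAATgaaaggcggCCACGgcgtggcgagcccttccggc
Canx (chr11:50325780-50325838, minus strand): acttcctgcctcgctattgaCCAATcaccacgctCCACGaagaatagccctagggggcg
Syvn1 (chr19:6046512-6046570, plus strand): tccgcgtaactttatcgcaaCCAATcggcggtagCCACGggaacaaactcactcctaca
Hspa5 (chr2:34772005-34772063, plus strand): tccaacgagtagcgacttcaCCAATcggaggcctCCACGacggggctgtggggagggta
Hsp90b1 (chr10:86705618-86705676, minus strand): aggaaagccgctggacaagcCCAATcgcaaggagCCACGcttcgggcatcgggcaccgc
Creld2 (chr15:88819500-88819558, plus strand): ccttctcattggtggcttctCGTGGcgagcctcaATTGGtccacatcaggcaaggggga

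Over all genes with this element in the promoter, 21 were tested, of which 12 were lower and 9 higher at 1 year. The 4 that fell were Calr, Syvn1, Pdia6 and Canx, and the 1 that rose was Pan2, a deadenylase subunit (23, 17.8 and 21.8 CPM at 1 month, 33.4 and 33.2 CPM at 1 year). Hsp90b1 was at 469, 430 and 453 CPM at 1 month and at 353 and 338 CPM at 1 year, with no overlap but an adjusted p of 0.0749 by edgeR. Creld2 was at 23.4, 10.2 and 14.7 CPM at 1 month and at 10.4 and 9.83 CPM at 1 year, so that replicate 2 of 1 month fell among the older libraries. The presence of the letters is a description of these promoters and shows no binding.

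Immediate early genes are transcribed within minutes of neuronal firing and sensory input. These and other activity-induced genes were mostly lower at 1 year in het. Of 34 tested members, 32 had a lower estimate, 4 fell and none rose, with a median of -0.51 in het and 0.03 in WT. The median moved to -0.30 without replicate 1 of 1 month, the library with the highest mean level of the list at 0.35, while replicates 2 and 3 stood at -0.13 and 0.08 and the 1 year libraries at -0.23 and -0.51. Without that library 7 members fell.

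Bdnf, a neurotrophin that strengthens synapses, was at 51.3, 50.7 and 55.3 CPM at 1 month and at 35.1 and 39.0 CPM at 1 year (log2 -0.50 ± 0.12, adjusted p = 0.0473 by edgeR). The transcription factor Egr1 was at 316, 209 and 227 CPM and then at 133 and 156 CPM (log2 -0.80 ± 0.19), and the related Egr4 at 28.4, 26.3 and 37.1 CPM and then at 15.2 and 16.1 CPM (log2 -0.97 ± 0.20). For all 3 genes both libraries of 1 year lay below the lowest of 1 month. Nptx2, a secreted pentraxin that clusters AMPA receptors, was called as well, at 61.8, 82.3 and 100 CPM against 50.7 and 44.4 CPM. Its adjusted p by edgeR sat at the threshold, at 0.05 after rounding.

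**Figure D2:**
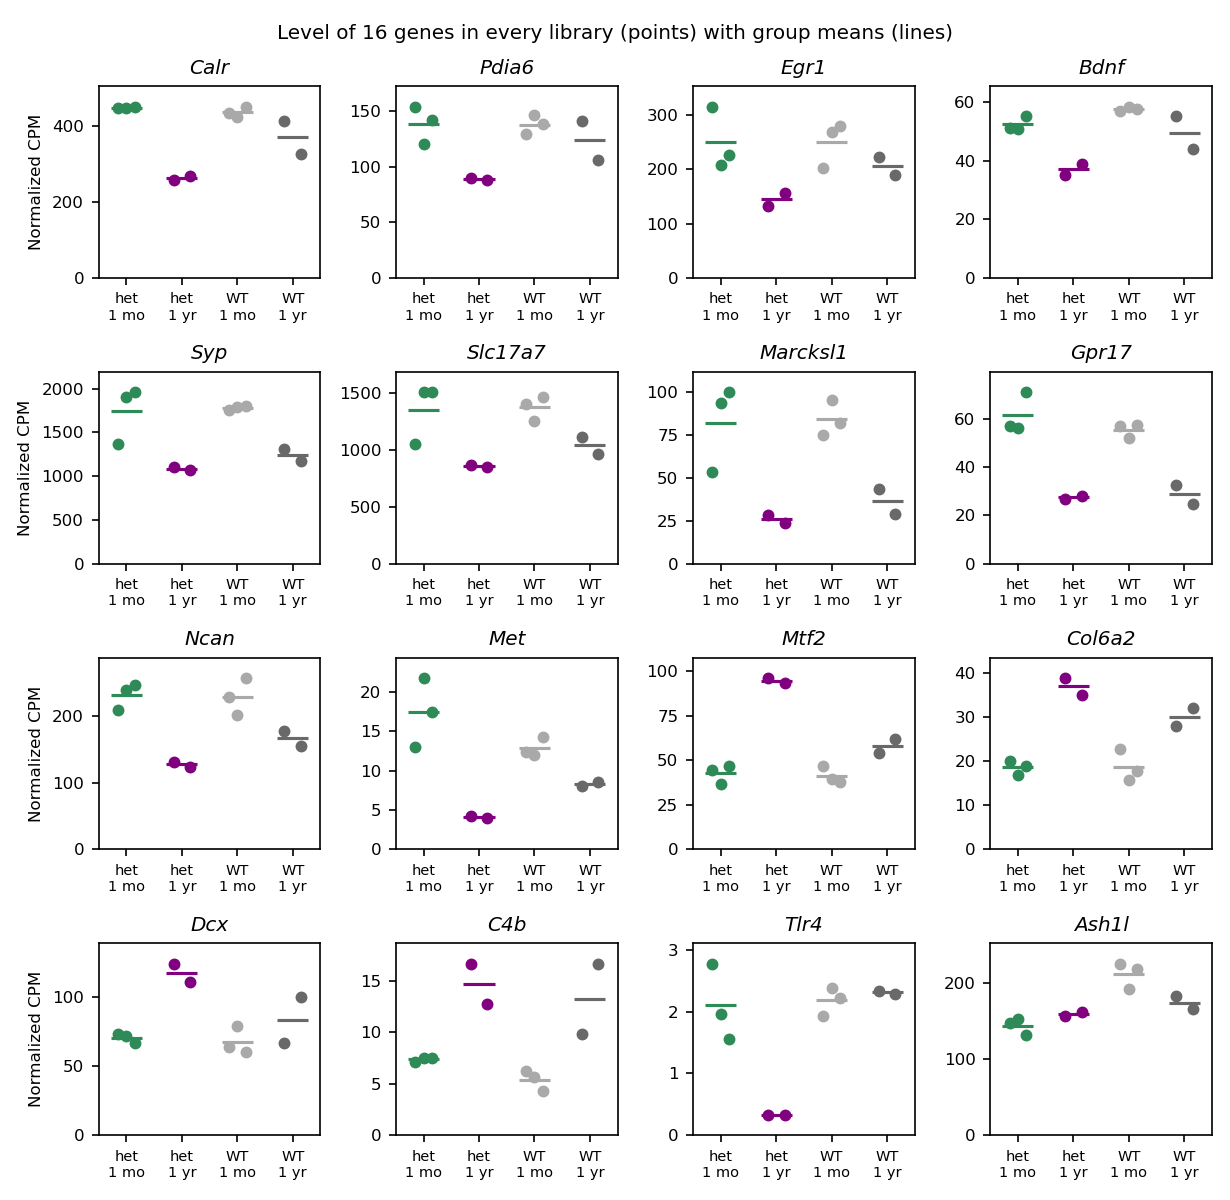
Normalized CPM of 16 genes in each library (points; vertical axes start at 0) with the mean of each group (lines), for het and WT at 1 month and 1 year. In het, the points of 1 year lie below those of 1 month for Calr, Bdnf, Syp, Met and Ncan and above them for Mtf2, Col6a2 and C4b.

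Transcripts of the presynaptic terminal were mostly lower at 1 year in het. Of 37 tested genes for vesicle release, 33 had a lower estimate, 5 fell and none rose, with a median of -0.39 in het and -0.21 in WT. Syp, an integral protein of synaptic vesicles, was at 1370, 1910 and 1960 CPM at 1 month and at 1100 and 1070 CPM at 1 year (log2 -0.69 ± 0.15, adjusted p = 0.0365 by edgeR). Syn1, which tethers vesicles to actin, was at 545, 861 and 762 CPM and then at 400 and 431 CPM. Replicate 1 of 1 month was the nearest to the older libraries for both genes. Stx1a, a SNARE of the fusion machinery, went from 323, 396 and 411 CPM to 268 and 267 CPM, and Rab3a, a vesicle GTPase, from 295, 396 and 384 CPM to 241 and 248 CPM. Both were close to the threshold, with an adjusted p of 0.0491 and 0.049 by edgeR. Without replicate 1 of 1 month the median of the list was -0.47, with 19 that fell and 2 that rose.

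On the postsynaptic side, 23 of 26 scaffold and adhesion genes had a lower estimate, 2 fell and none rose (median -0.25). Those that fell were Lrrtm3, a leucine-rich adhesion protein of excitatory synapses, from 62.5, 72.6 and 60.4 CPM to 41.7 and 46.1 CPM, and Nlgn3, a neuroligin, from 90.4, 119 and 112 CPM to 70.2 and 66.6 CPM. The count was 8 that fell and none that rose when replicate 1 of 1 month was left out, with a median of -0.29. Among 31 glutamate receptor genes and their partners, 24 had a lower estimate (median -0.26), 3 fell and 1 rose, and without that library 13 fell and 1 rose (median -0.32).

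The member that rose was Gria2, the AMPA receptor subunit that makes the channel impermeable to calcium, from 972, 793 and 781 CPM to 1260 and 1220 CPM (log2 0.55 ± 0.12, adjusted p = 0.0392 by edgeR). The 3 that fell were auxiliary proteins of the same receptor. Cacng2, also called stargazin, went from 128, 112 and 111 CPM to 76.9 and 85.6 CPM, Cacng4 from 29.8, 35.4 and 37.6 CPM to 21.7 and 16.9 CPM, and Shisa9 from 54.3, 75.3 and 85.1 CPM to 45.5 and 42.4 CPM. No gene for GABA or glycine receptors passed the test by edgeR (0 of 21, median -0.15), with 1 higher and 6 lower at an unadjusted p under 0.05 and 1 called by DESeq2. The smallest p there belonged to Gabbr2, at 328, 518 and 466 CPM against 257 and 271 CPM (adjusted p = 0.0592 by edgeR). In this list, 8 genes fell and 1 rose without replicate 1 of 1 month, with a median of -0.22.

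Markers of both main neuron classes were mostly lower as well. Of 24 markers of excitatory neurons and cortical layers, 21 had a lower estimate and 2 fell (median -0.23), and of 27 markers of inhibitory neurons 22 had a lower estimate and 1 fell (median -0.34). With replicate 1 of 1 month left out, 5 of the first list fell and none rose (median -0.33), and 9 of the second fell and 1 rose (median -0.43). Slc17a7 went from 1050, 1510 and 1510 CPM to 871 and 855 CPM, and Tbr1, a transcription factor of deep-layer neurons, from 127, 175 and 139 CPM to 85.8 and 63.4 CPM. Slc32a1, the vesicular transporter for GABA, went from 49.3, 68.3 and 64.4 CPM to 35.8 and 31.1 CPM. In these bulk samples, fewer cells of a type and less RNA per cell cannot be told apart, and the part of neuronal content in the synaptic results was not tested.

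Genes of immature neurons and neurite growth were called in both directions. Of 28 tested, 23 had a lower estimate, 5 fell and 1 rose, with a median of -0.33 in het, -0.28 in WT and -0.37 without replicate 1 of 1 month, where 11 fell and 1 rose. Marcksl1, an actin-binding protein of growing neurites, was at 53.5, 93.5 and 100 CPM at 1 month and at 28.6 and 23.5 CPM at 1 year, a drop of 3.17-fold (log2 -1.66 ± 0.28, adjusted p = 0.03 by edgeR). Its relative Marcks went from 158, 217 and 193 CPM to 127 and 106 CPM. Crmp1 and Dpysl3, which carry semaphorin signals in growth cones, went from 141, 207 and 198 CPM to 113 and 110 CPM and from 35.0, 50 and 53.6 CPM to 29.1 and 28.2 CPM. Cd24a, a surface glycoprotein of young neurons, was the other member that fell.

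Dcx, the microtubule-binding protein widely used as a marker of newborn neurons, went the other way. It stood at 73.3, 71.8 and 66.5 CPM at 1 month and at 124 and 111 CPM at 1 year, a rise of 1.66-fold (log2 0.74 ± 0.16, adjusted p = 0.0392 by edgeR). In WT the 1 month libraries held 63.4, 79.0 and 59.9 CPM and those of 1 year 66.5 and 99.9 CPM, so that the groups overlapped there. The call in het was kept in 4 of the 10 fits that left out a library, with the adjusted p reaching 0.232.

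Of 43 axon guidance genes, 36 had a lower estimate and 2 fell (median -0.35). Sema6a, a transmembrane semaphorin, went from 19.8, 22.5 and 18.1 CPM to 9.79 and 7.31 CPM, a drop of 2.36-fold that WT shared (log2 -1.24 in het and -1.33 in WT, called in both). Efna5, an ephrin that patterns cortical maps, went from 28.4, 33.9 and 28.8 CPM to 18.9 and 22.1 CPM. Without replicate 1 of 1 month 20 members fell and 1 rose, with a median of -0.42.

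In the extracellular matrix, the genes of neural matrix that were called fell and the collagen chains that were called rose. Of 20 genes of perineuronal nets and neural matrix, 16 had a lower estimate and 2 fell, with a median of -0.30. Ncan, the core protein of neurocan, was at 209, 239 and 247 CPM at 1 month and at 131 and 124 CPM at 1 year (log2 -0.86 ± 0.13, adjusted p = 0.0151 by edgeR), and Chst11, which sulfates chondroitin, went from 51.1, 60.3 and 61.1 CPM to 38.9 and 39.3 CPM. Neither gene overlapped between ages. Leaving out replicate 1 of 1 month, 6 members fell and 1 rose, with a median of -0.35.

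Of 32 genes for collagens and basement membrane, 6 rose and none fell, all 6 of them collagen chains, although the median of the list was only 0.10 and 14 members had a lower estimate. The median was 0.01 without replicate 1 of 1 month, where 8 rose and 2 fell. Col6a2 went from 20.1, 16.8 and 19 CPM to 38.9 and 35.1 CPM (log2 0.99 ± 0.16, adjusted p = 0.019 by edgeR), and Col6a1, which joins it in the microfibrils of collagen VI, from 57.2, 30.2 and 44.9 CPM to 107 and 93.6 CPM. Col4a1, a chain of basement membrane, was at 52.2, 27.9 and 45.7 CPM and then at 79.2 and 86.4 CPM, with replicate 2 of 1 month the lowest. Col12a1, Col27a1 and Col19a1 rose by log2 0.79, 1.14 and 0.96. Markers of the vessel and meningeal cells that also make collagens had mostly lower estimates: of 17 markers of pericytes and smooth muscle 16 had a lower estimate (median -0.45), and of 20 markers of meninges and fibroblasts 16 had a lower estimate (median -0.25). None of either list was called by edgeR, with 4 and 5 lower at an unadjusted p under 0.05, and DESeq2 called 1 in each. When replicate 1 of 1 month was left out, 4 of each list fell and none rose, with medians of -0.62 and -0.44. Over the 10 fits that left out a library, the medians ranged from -0.62 to -0.28 and from -0.62 to -0.02. The summed level of these 2 lists was 135 to 194 and 158 to 257 CPM at 1 month and 123 to 125 and 139 to 191 CPM at 1 year, and their part in the collagen result was not tested.

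**Figure D3:**
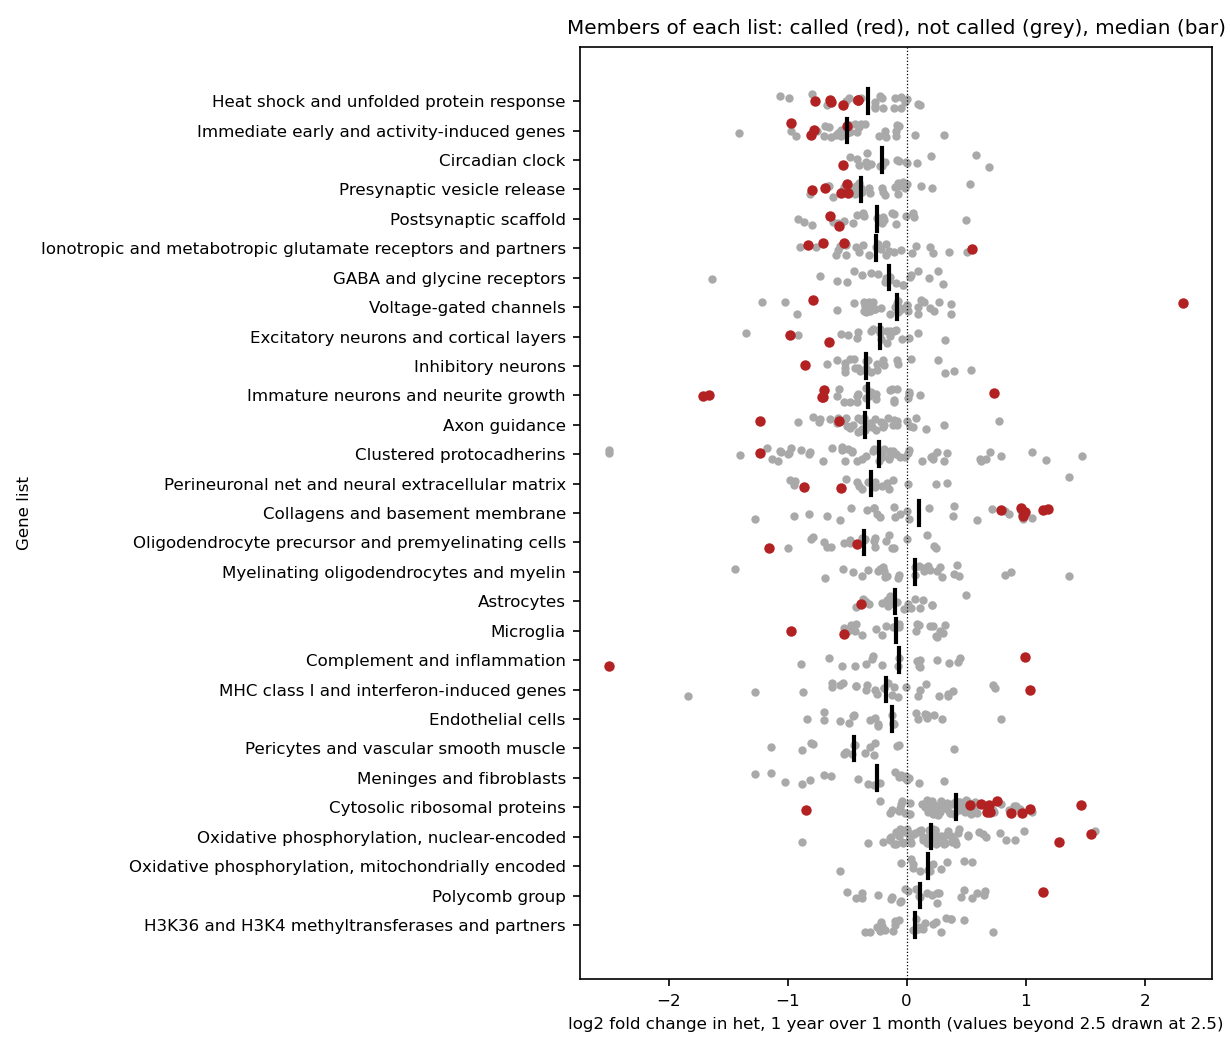
Change with age in het (log2 fold change, 1 year over 1 month) of every tested member of 29 gene lists; red points were called, grey points were not, and the bar is the list's median. The chaperone, activity-induced, presynaptic and immature neuron lists lie mostly left of 0 (medians -0.33, -0.51, -0.39 and -0.33), the ribosomal protein list mostly right (median 0.41).

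In the oligodendrocyte lineage, markers of precursors were mostly lower and genes of mature myelin gave no call. Of 25 markers of precursors and premyelinating cells, 21 had a lower estimate and 2 fell (median -0.36). Gpr17, a receptor confined to the premyelinating stage, went from 57.0, 56.1 and 70.9 CPM to 26.9 and 28.1 CPM, a drop of 2.23-fold (log2 -1.16 ± 0.15, adjusted p = 0.00775 by edgeR). WT gave nearly the same change, at log2 -0.95, and the gene was called there too. Fyn, a kinase of early myelination that neurons also express, was the other member that fell. Its adjusted p by edgeR sat at the threshold, at 0.05 after rounding. The list had 7 that fell and 1 that rose without replicate 1 of 1 month, with a median of -0.39.

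Of 30 genes of mature oligodendrocytes and myelin, 16 had a higher and 14 a lower estimate, none was called by edgeR and the median was 0.07. An unadjusted p under 0.05 was reached by 4 higher and 2 lower, and DESeq2 called 2 higher and 1 lower. Without replicate 1 of 1 month the median was 0.21 with 7 that rose and none that fell. That library held 3530 CPM over the whole list, against 2390 and 2200 CPM in the other libraries of 1 month and 2600 and 2720 CPM at 1 year. Hapln2, a link protein of the nodes of Ranvier, was at 10.3, 5.50 and 3.86 CPM at 1 month and at 17.0 and 16.7 CPM at 1 year (log2 1.37 ± 0.35, adjusted p = 0.056 by edgeR).

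Complement proteins tag synapses and debris for removal, and MHC class I molecules present peptides to immune cells. Of 20 complement and inflammation genes 1 rose and 1 fell, with a median of -0.067. Of 30 MHC class I and interferon-induced genes 1 rose and none fell, with a median of -0.17. Left without replicate 1 of 1 month, the first list had 1 that rose and 3 that fell (median -0.05) and the second 1 that rose and none that fell (median 0.06). C4b, a complement component that rises in ageing glia, went from 7.15, 7.53 and 7.54 CPM to 16.7 and 12.8 CPM, a rise of 1.99-fold (log2 1.00 ± 0.23, adjusted p = 0.0447 by edgeR), and H2-T22, an MHC class Ib gene, from 16.7, 13.3 and 14.6 CPM to 30.4 and 30.5 CPM (log2 1.03 ± 0.14, adjusted p = 0.00946 by edgeR). WT gave estimates of 1.30 and 0.89 for these 2 genes, and H2-T22 was called there. H2-T22 belongs to a family of near-identical copies, so its count is uncertain. Casp1, the protease of the inflammasome, went from 2.71, 1.56 and 1.74 CPM to 5.62 and 4.96 CPM.

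Among 24 microglia markers, 14 had a lower and 10 a higher estimate and 2 fell. Csf1r, the receptor on which microglia depend, went from 83.8, 108 and 104 CPM to 70.8 and 66.5 CPM, and Cd68, a lysosomal protein of phagocytes, from 7.22, 10.7 and 6.92 CPM to 4.17 and 4.22 CPM. Both were close to the threshold, with an adjusted p of 0.0497 and 0.0485 by edgeR. Over the list as a whole the summed level was 725 to 796 CPM at 1 month and 658 and 741 CPM at 1 year. Of 22 astrocyte markers, Gja1, the gap junction protein connexin 43, was the only one called, from 169, 176 and 173 CPM to 136 and 129 CPM. No marker of endothelial cells was called by edgeR or DESeq2 (0 of 23, median -0.12), and 4 reached an unadjusted p under 0.05, all lower. In the fit without replicate 1 of 1 month, 4 microglia markers fell (median -0.12), 4 astrocyte markers fell and 1 rose (median -0.07), and 1 endothelial marker fell (median -0.17). That fit called 8.19% of all tested genes higher and 10.2% lower, against 1.84% and 1.60% with all libraries.

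Tlr4, the receptor for bacterial lipopolysaccharide, was at 2.78, 1.97 and 1.56 CPM at 1 month and at 0.321 and 0.325 CPM at 1 year, a drop of 6.34-fold (log2 -2.66 ± 0.44, adjusted p = 0.0195 by edgeR). WT held 1.94 to 2.39 CPM at 1 month and 2.29 and 2.34 CPM at 1 year. These low levels rest on few reads, 40, 29 and 25 in the libraries of 1 month and 4 in each of those of 1 year. Ccl9, a chemokine, showed a like picture at 2.57, 2.92 and 1.43 CPM against 0.642 and 0.731 CPM, with 2.56 and 2.86 CPM in WT at 1 year.

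Proteins of the cytosolic ribosome had higher transcript levels in the older het libraries. Of 84 tested, 75 had a higher estimate, 11 rose and 1 fell, with a median of 0.41 in het, 0.36 in WT and 0.50 without replicate 1 of 1 month, where 22 rose and 1 fell. Rpl37 went from 47.0, 38.7 and 48.7 CPM to 88.4 and 86.9 CPM, Rpl31 from 60.8, 48.9 and 57.4 CPM to 94.3 and 93.8 CPM, and Rpl32 from 107, 95.1 and 108 CPM to 166 and 164 CPM. Rpl28 fell, from 10.1, 12.3 and 11.8 CPM to 6.74 and 5.93 CPM. Ribosomal protein genes have many processed copies in the genome, and the division of reads among them is uncertain.

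Of 81 nuclear genes of oxidative phosphorylation, 65 had a higher estimate, 2 rose and none fell (median 0.21). Over all tested genes 1.84% rose and 1.60% fell. Without replicate 1 of 1 month, 17 of the list rose and 2 fell, with a median of 0.28. In that fit 8.19% of all tested genes rose and 10.2% fell. Of the 2 called with all libraries, Cox7c, a small subunit of cytochrome oxidase, went from 5.27, 4.68 and 4.05 CPM to 11.2 and 11.5 CPM (log2 1.28 ± 0.22, adjusted p = 0.0214 by edgeR). The other was Atp5l2-ps, annotated as a processed pseudogene. Across all tested genes, which are no independent replicates, the change had a Pearson correlation of -0.07 with log2 gene length. With a correction for gene length the calls over all genes numbered 637, of which 288 rose and 349 fell. The part of gene length in these 2 lists was not tested.

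The methyl marks on lysine 36 and lysine 4 of histone H3 go with active genes, and Polycomb complexes keep developmental genes silent. The first list holds 27 methyltransferases of lysine 36 or lysine 4 of histone H3 and their partners, demethylases among them. None was called by edgeR, with estimates from -0.35 to 0.72 and a median of 0.07. An unadjusted p under 0.05 was reached by 6 higher and 1 lower, and DESeq2 called 2, both higher. The smallest p was that of Kdm6a, at 29.7, 34.0 and 34.0 CPM against 49.2 and 41.8 CPM (log2 0.48 ± 0.13, adjusted p = 0.056 by edgeR). Kdm6a is counted among the partners and is a demethylase of neither lysine 36 nor lysine 4. Among 26 Polycomb genes Mtf2 was the only one called (median 0.11), and of 24 homeobox and other developmental regulators none was called by edgeR or DESeq2 (median -0.10), with 2 higher and 1 lower at an unadjusted p under 0.05. The smallest p there was that of Pax6, at 4.09, 4.41 and 5.48 CPM against 7.95 and 7.07 CPM (adjusted p = 0.0675 by edgeR). In the fit without replicate 1 of 1 month, 4 of the first list rose and none fell (median 0.05), 5 Polycomb genes rose and 2 fell (median 0.08), and 1 developmental regulator fell (median -0.10).

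Of 57 clustered protocadherins, 40 had a lower estimate and 1, Pcdha9, fell (4.65, 7.06 and 4.55 CPM against 1.85 and 2.76 CPM). Over all tested genes 1.60% fell, so the count of 1 is near that share. The median of the cluster was -0.24 in het and -0.20 in WT. The median was -0.42 without replicate 1 of 1 month, where 10 fell and 1 rose. In that fit 10.2% of all tested genes fell and 8.19% rose. Members of the alpha cluster share their last exons, as do those of the gamma cluster, so the reads of Pcdha9 cannot be kept apart from those of other alpha members with certainty.

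Other genes with a large fold change that rose were Gprasp2, a sorting protein for G-protein-coupled receptors, Klk8, a serine protease of the synaptic matrix, and Hs3st3a1, which sulfates heparan. Gprasp2 gave the largest fold among the named genes that rose, 6.90-fold, but its libraries of 1 year disagreed, at 124 and 49.2 CPM against 10.4, 18.3 and 8.97 CPM at 1 month. Its call was kept in 2 of the 10 fits that left out a library, and without replicate 1 of 1 month its adjusted p was 0.0556 by edgeR. Klk8 went from 0.833, 0.407 and 0.623 CPM to 2.01 and 2.44 CPM, and Hs3st3a1 from 0.694, 0.679 and 0.748 CPM to 2.09 and 3.41 CPM.

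Large drops were also seen for Oxtr, the oxytocin receptor, from 7.15, 8.55 and 10.2 CPM to 4.66 and 2.76 CPM, and for Klf5, a zinc finger transcription factor, from 4.37, 7.06 and 7.10 CPM to 2.65 and 2.19 CPM. Gja4, the connexin 37 of arterial endothelium, went from 1.60, 3.39 and 3.24 CPM to 0.482 and 0.325 CPM. Ccnd1, the cyclin of the G1 phase, went from 71.2, 66.8 and 66.6 CPM to 44.2 and 45.2 CPM, and Nr1d1, a repressor of the circadian clock, from 90.5, 96.4 and 94.3 CPM to 60.2 and 69.2 CPM.

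The largest drops were in genes of kidney tubules. Kap, the kidney androgen-regulated protein, had 500 reads over the 3 libraries of 1 month and 0 over those of 1 year, which is at least 90.7-fold lower with a floor of 3 counts over the group. Acsm2 had 126 reads against 0, at least 23.1-fold lower, and Napsa 57 against 0, at least 10.4-fold lower. Per library Kap stood at 5.27, 15.3 and 12.3 CPM at 1 month, and in WT at 1.87, 1.5 and 1.41 CPM at 1 month and at 0 at 1 year. Its call in het was kept in all 10 fits that left out a library. Of 16 kidney markers, 14 reached the floor in het at 1 month and 5 at 1 year. Gatm, which brain cells express as well, rose from 67.3, 47.6 and 43.2 CPM to 90.6 and 94.2 CPM. The part of kidney RNA in other results was not tested.

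The direction of change with age was mostly shared with WT, in which the same fit called 15 genes (0.0936% of those tested; 0.0562% higher and 0.0374% lower) with 2452 at an unadjusted p under 0.05. Of the 295 genes that rose in het, 281 had a higher estimate in WT too, with a WT median of 0.47 against 0.82. Of the 257 that fell, 251 had a lower estimate in WT, with a WT median of -0.36 against -0.64. Genes called in het were picked for their size there, so a smaller median in WT is no test. Across all tested genes the sign was the same for 72.3%, and the Pearson correlation of the changes was 0.46 (Spearman 0.53). This correlation is across genes, which are no independent replicates, and the het and WT contrasts share no library.

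**Figure D4:**
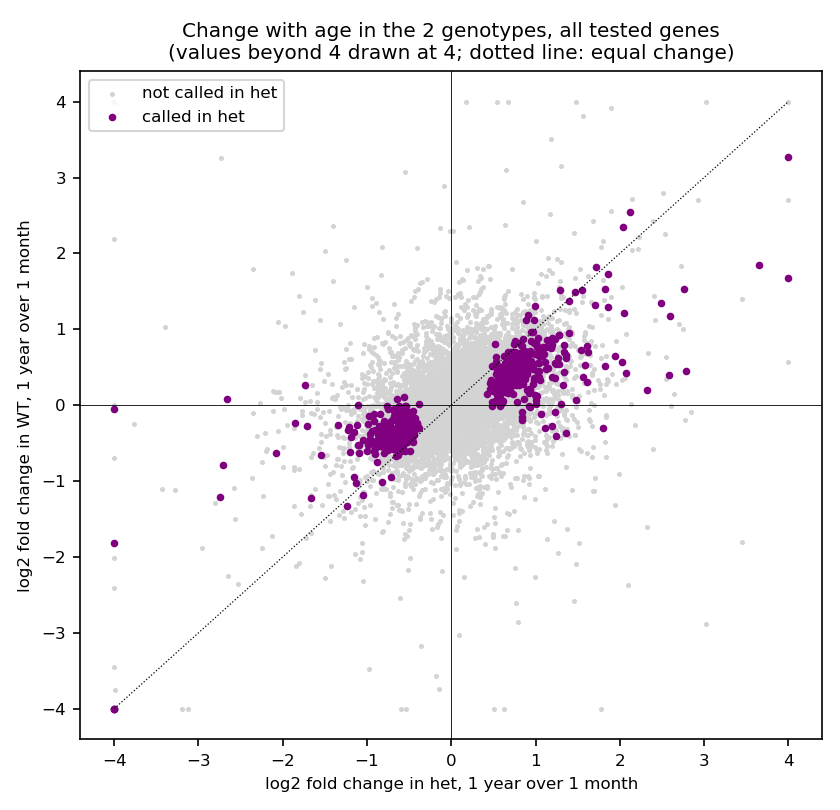
Log2 fold change of 1 year over 1 month in het (horizontal) and in WT (vertical) for all 16023 tested genes, with the 552 called in het in purple. Of the called genes 532 have the same sign in both genotypes, and in most of these the change is smaller in WT than in het. The dotted line marks equal change.

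The difference between genotypes was tested directly by the interaction, and 1 gene passed (0.00624% of those tested), with 668 at an unadjusted p under 0.05. The changes listed for het are therefore not shown to differ from those in WT, except for that gene. Of the other genes called in het, the smallest interaction p-values were those of Tlr4 (unadjusted p = 0.000274, adjusted 0.745 by edgeR), Cldn12 (0.00033, adjusted 0.756) and Met (0.000423, adjusted 0.847). Cldn12, a claudin of tight junctions, was at 16.7, 19.2 and 20.5 CPM in het at 1 month and at 42.3 and 44.1 CPM at 1 year, whereas WT held 35.1 to 47.6 CPM at 1 month and 26.1 and 44.9 CPM at 1 year. At 1 year the het libraries thus reached the range of WT at 1 month.

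The genes called with age in both genotypes numbered 10, namely Gpr17, Sema6a, H2-T22, Rpl12, Pisd-ps1, PISD, Rreb1, Far1, Gm6793 and Gm10076. All 10 moved in the same direction in both, and Far1 sat at the threshold in het (adjusted p = 0.05 by edgeR after rounding). Rreb1, a zinc finger transcription factor acting downstream of Ras, went from 45.5, 32.4 and 41.9 CPM to 83.3 and 73.9 CPM in het, and from 28.5, 30.2 and 34.7 CPM to 54.7 and 80.4 CPM in WT. Gm6793 kept its call in het in all 10 fits, at 41.7, 47.0 and 45.5 CPM against 20.5 and 20.4 CPM, and it overlaps Terf2ip.

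**Figure D5:**
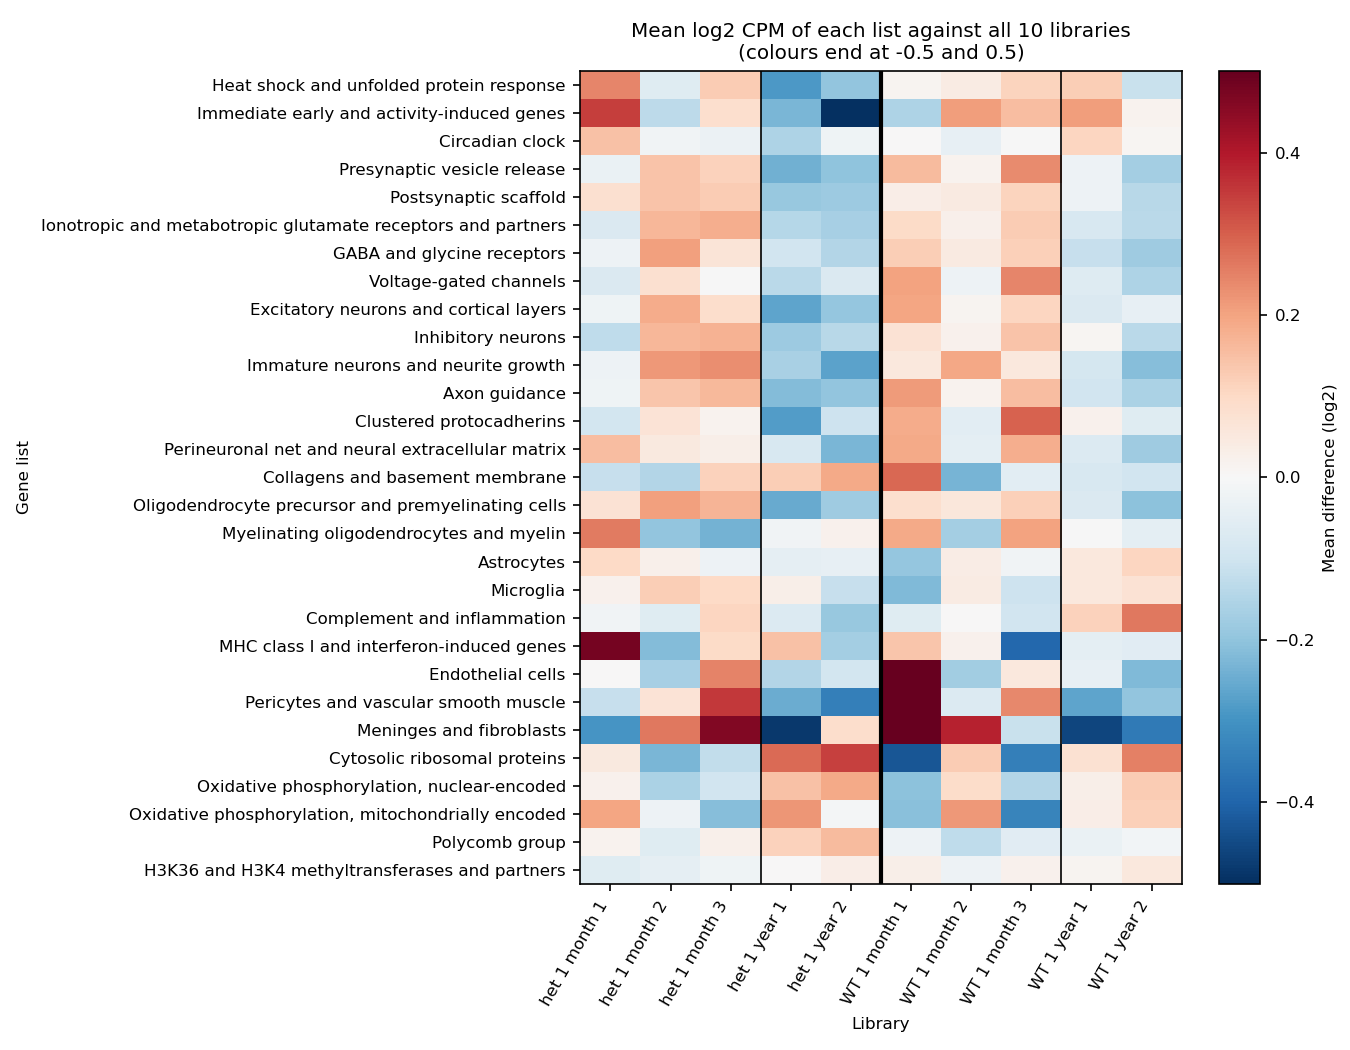
Mean log2 CPM of 29 gene lists in each library relative to the mean over all 10 libraries, for het and WT at 1 month and 1 year (blue lower, red higher; colours end at -0.5 and 0.5). In het the chaperone list is at -0.29 and -0.20 in the libraries of 1 year, below all 3 of 1 month, and the ribosomal protein list is at 0.28 and 0.34, above them.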

How the data were processed

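Per the labels' protocols, auditory cortex RNA was taken up in TRIzol and turned into libraries with a stranded mRNA kit. According to the submitters' processing notes, CASAVA, FastQC, HISAT2, StringTie and edgeR were used with GRCm38; the sources used here name no version, option or strand setting. Each library came with the raw read counts per gene that the authors deposited, and the series with a table of the same counts and FPKM; this deposited FPKM was used only to derive gene lengths.

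Counts of 34745 genes entered edgeR 4.0.16 (R 4.3.3). Genes were filtered by group (minimum count 10, minimum total 15), scaled with TMM factors, and fitted by quasi-likelihood (robust) using 4 group means over all 10 libraries, leaving 6 residual degrees of freedom. Two-sided tests of age in het, age in WT and their interaction were adjusted by Benjamini-Hochberg across the 16023 genes kept, and a gene was called at an adjusted p under 0.05. An approximate SE was obtained as the log2 fold change over the root of the F statistic. Where a group had 0 reads, a floor of 3 counts was used, which covers counting error only.

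The rule for named genes took Ash1l; the 15 higher and 15 lower called genes with the largest fold change whose mean reached 1 CPM and whose ages did not overlap, without clone names; up to 6 called members of each of 43 lists, or up to 4 members where none was called; genes called in the interaction or in both genotypes; and those of smallest interaction p. A part of them is given, and some are not reported here although the totals contain them. Members and lists were chosen with earlier results of these data known, and lists are described without a set test. No 2 libraries held the same counts. Alternatives were RLE and upper quartile scaling, 2 other filters, a fold minimum, DESeq2 1.42.0, a fit of the compared groups only, a replicate block, a gene length correction and leaving out each library.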

Additional observations from a re-analysis of the deposited data

Results flagged for a closer look

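The change with age differed between het and WT by the interaction test for 1 gene. The astrocyte list differed in direction: its mean level was lower in both het libraries of 1 year than in all het libraries of 1 month (median change of the 22 members -0.10) and higher in both WT libraries of 1 year (median 0.10). The same held for the list of complement and inflammation genes, with a median of -0.067 in het and 0.13 in WT over 20 members. The separations were narrow. For astrocytes the nearest libraries of 1 year and 1 month stood at -0.042 and -0.027 in het and at 0.053 and 0.038 in WT. For complement in het they stood at -0.07 and -0.061. Among single tested genes in het, 21.7% lay entirely above and 20.8% entirely below at 1 year. The difference between genotypes was not tested for either list. Both medians in het are small, 1 astrocyte marker and 2 genes of the complement list were called there, and among the latter C4b rose while Tlr4 fell.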

How the results depend on the processing

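With 552 calls in het, 15 in WT and 1 in the interaction as reported, RLE scaling, a minimum count of 30 and the gene length correction stayed within 1.5 times for all 3. Upper quartile scaling gave 491 calls in het, of which 314 rose and 177 fell against 295 and 257 with TMM; it moved the median of all genes from 0.01 to 0.04. Without a low count filter there were 937 calls in het (365 rose, 572 fell) and 64 in WT. DESeq2 called 1372, 240 and 9, and 533 of its calls in het were among the 552. Testing against a fold of 1.2 left 29 in het and 4 in WT. Fits of only the groups compared gave 32 in het and 79 in WT. Leaving out each library gave 19 to 2931 in het, 8 to 377 in WT and 1 to 7 in the interaction.

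With the replicate number as a block the calls were 13 in het (6 rose, 7 fell), 7 in WT and 1 in the interaction. The numbers 1 and 2 are shared by the groups, and the deviations of same-numbered het libraries had correlations of -0.04 and -0.003. The deviations of the 2 het libraries of 1 year mirror each other, and WT was not examined. The correlations therefore cannot decide whether the numbers pair the libraries, and no label says that they do.

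Of single named genes, the sign turned only for 5 that were not called: mt-Atp8 to -0.12 with the length correction and, over the fits that left out a library, Kl (-0.282 to 0.056), Myh1 (-0.037 to 0.937), Sp7 (-5.478 to 0.121) and Clic6 (-1.631 to 1.955). The cause of these shifts was not tested. With 2 het libraries of 1 year, the shallowest of the series, genes of low count are the least certain.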

Other observations

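Some gene groups outside the lists were looked at after their values were seen, and they are given as counts. Of 322 tested zinc finger genes named Zfp, 227 had a higher estimate at 1 year in het, 9 rose and 2 fell, with a median of 0.17 (0.08 in WT). Over all tested genes 1.84% rose and 1.60% fell. Zfp950 went from 106, 69.8 and 74.6 CPM at 1 month to 172 and 164 CPM at 1 year, and Zfp945 from 35.5, 25.1 and 25.4 CPM to 58.7 and 53.2 CPM. Of 14 splicing factors of the Srsf and Luc7l families, 11 had a higher estimate and 4 rose: Srsf1, Luc7l3, Srsf11 and Luc7l2. The median was 0.31 in het and 0.29 in WT, where 12 had a higher estimate. Luc7l3 was at 182, 128 and 142 CPM and then at 234 and 247 CPM. All 6 genes of the 14-3-3 family, named Ywha, had a lower estimate, and Ywhaz (436, 601 and 517 CPM against 299 and 314 CPM) and Ywhag fell. In WT all 6 had a lower estimate too, with a median of -0.33 against -0.47 in het. All 3 calsyntenins, adhesion proteins of the postsynaptic membrane, had a lower estimate, and Clstn1 (1148, 1569 and 1522 CPM against 854 and 893 CPM) and Clstn3 fell. WT gave a lower estimate for all 3 as well, with a median of -0.42 against -0.69 in het. Zfp950, Srsf1, Srsf11 and Luc7l2 overlap other genes, with which they may share reads.

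By gene class, non-coding RNAs made up 15.6% of the genes that rose and 0.778% of those that fell, against 8.99% of all tested genes, and protein-coding genes 79.7% and 98.1%, against 88.9%. The median gene length was 7354 bases for genes that rose, 5178 bases for those that fell and 5012 bases over all tested genes.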
